A study of Homo sapiens with 11 samples.

Results

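The kallikrein-related peptidase genes KLK5, KLK6, KLK7, KLK8, KLK10 and KLK11 were followed through RNA-seq libraries of HEC50B, an endometrial cancer cell line. These 6 genes are among the 57736 gene IDs in the count table, and each was found by the Ensembl ID that pairs with its symbol. The rule that names them uses no cutoff, but the members were chosen on results of these same libraries, so their values are given as a description without p-values. Where a member is counted as called, this says on which side of a threshold it fell and is no test of it. The line carries PPP2R1A R183W, a substitution in the subunit that scaffolds the phosphatase PP2A, and its counterpart was restored to wild type (WT) by CRISPR editing. The 11 libraries form 4 groups: R183W cells with vehicle (n = 3), WT cells with vehicle (n = 3), R183W cells with WM1119 (n = 2) and WT cells with WM1119 (n = 3). WM1119 is an inhibitor of the lysine acetyltransferase KAT6A and was given at 50 µM for 4 days. All 4 groups share the HEC50B background, and each genotype is a single line. The sources used here do not give whether the WT line is 1 clone, so the codon change and other differences between the lines cannot be told apart. The labels number the replicates without saying that they were separate cultures, so SEs and p-values measure only the spread between these libraries, which may be technical.

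Kallikrein-related peptidases are secreted serine proteases with trypsin-like or chymotrypsin-like specificity, made as zymogens that other proteases activate, often other kallikreins. The family lies side by side in a single cluster on the long arm of chromosome 19 with no other protein-coding gene between its members in the RefSeq gene order. In the epidermis KLK5, KLK7 and KLK8 take part in the shedding of corneocytes by cutting desmosomal proteins, and inhibitors of the SPINK and serpin families hold them in check. Several members, KLK6 and KLK10 among them, are known as secreted markers of gynaecological carcinomas, and kallikreins can also signal by cutting proteinase-activated receptors.

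The sequence before a RefSeq start site of KLK6 is printed because KLK6 was the member whose counts differed between the genotypes. It covers the 250 bases before the start, on the minus strand of chr19:50969592-50969841 (GRCh38.p14, RefSeq), 5′ to 3′. Capitals mark the GC box, GGGCGG on either strand.
KLK6: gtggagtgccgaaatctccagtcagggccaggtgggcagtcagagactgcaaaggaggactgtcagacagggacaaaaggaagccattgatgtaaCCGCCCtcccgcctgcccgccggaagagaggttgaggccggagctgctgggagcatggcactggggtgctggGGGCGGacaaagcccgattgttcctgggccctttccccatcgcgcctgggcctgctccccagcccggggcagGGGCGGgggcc
Its 3 GC boxes have their first letters 155, 83 and 11 bases before the start. Each RefSeq window runs from 250 bases before a start to 50 bases after it, and 45.0% of the 35116 windows in the table hold a GC box on either strand. Neither the AP-1 motif, searched as TGANTCA on both strands, nor a TATA box, searched as TATAAA, was found in the KLK6 window. The estrogen receptor half-site was searched as AGGTCA and not found. The same 3 motifs were without a match in the windows of KLK5, KLK7, KLK10 and KLK11. The shares of all windows that hold them were, in that order, 7.71%, 11.5% and 13.8%. The window of KLK5, which had no counts, held no GC box either, while all 3 KLK7 windows held at least 1. KLK8 had no window to search. Neither KLK10 window held a GC box, and the KLK11 windows held 0 and 3. These matches describe letters and not bound sites.

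Of the 6 members, only KLK6 (ENSG00000167755) and KLK8 (ENSG00000129455) had enough counts to pass the filter on low counts that 13980 genes passed. KLK6 held 2846 counts over the 11 libraries and KLK8 held 382. KLK7 had 17 counts in all, KLK10 had 14 and KLK11 had 13. KLK5, the trypsin-like enzyme that starts the epidermal activation cascade, had 0 counts in every library. Library totals ran from 2609922 to 6065149 counts, so a count of 0 allows between 0.495 and 1.24 CPM (counts scaled by TMM to a common library total), with 3 counts as the floor. Such floors cover counting error only.

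**Figure D1:**
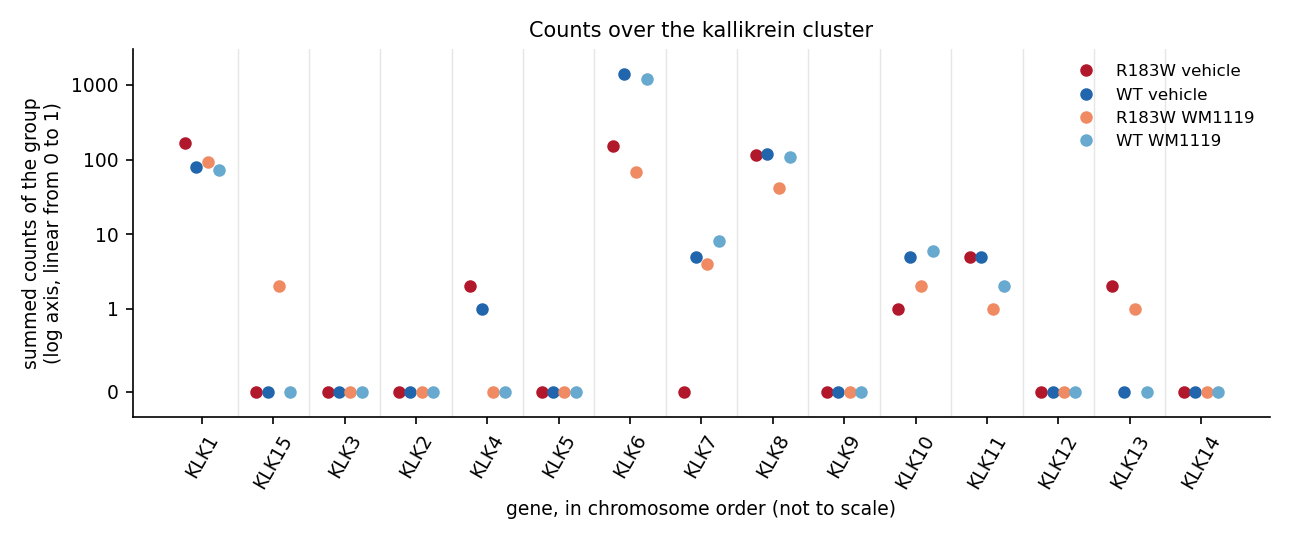
Summed counts of each group for the 15 kallikrein genes in chromosome order, on an axis that is linear from 0 to 1 and logarithmic above. KLK6, KLK8 and KLK1 stand above the rest, and KLK6 is the gene whose R183W groups (150 and 69 counts) lie far below its WT groups (1414 and 1213 counts).

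Across the 15 genes of the family, 6 had no counts in any library (KLK2, KLK3, KLK5, KLK9, KLK12 and KLK14). KLK4 and KLK13 had 3 counts each and KLK15 had 2. Only KLK1, KLK6 and KLK8 were testable, and the other 12 genes did not pass the filter. KLK6 and KLK8 are thus separated in the cluster by KLK7, and KLK8 is followed by KLK9, both without testable counts. Genes annotated on the opposite strand across KLK5 to KLK9 had 0 counts, so they take no reads in the deposited table. A protein-coding gene annotated on the same strand across KLK8 and KLK9 also had 0 counts. Another same-strand gene, across KLK6, was absent from the count table, so its share of reads cannot be checked. The sources used here do not give whether the counting used strand.

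KLK6, also called neurosin, is a trypsin-like kallikrein best known from brain and from ovarian and uterine carcinomas. It was the main kallikrein of WT cells and was low in R183W cells under both treatments. Under vehicle, R183W libraries read 8.58, 12.2 and 8.31 CPM, a mean of 9.70 ± 2.17 (SD, n = 3). WT libraries under vehicle read 94.8, 90.9 and 96.3 CPM, a mean of 94.0 ± 2.80 (n = 3). The highest R183W library therefore lay well below the lowest WT library, and the WT libraries lay close together. With WM1119, R183W libraries read 9.84 and 8.46 CPM (9.15 ± 0.977, n = 2). WT libraries with WM1119 read 108, 124 and 99.5 CPM (110 ± 12.2, n = 3). No library of either genotype reached the range of the other, with or without the inhibitor. In bulk RNA, fewer cells that express a gene and less RNA per cell cannot be told apart.

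**Figure D2:**
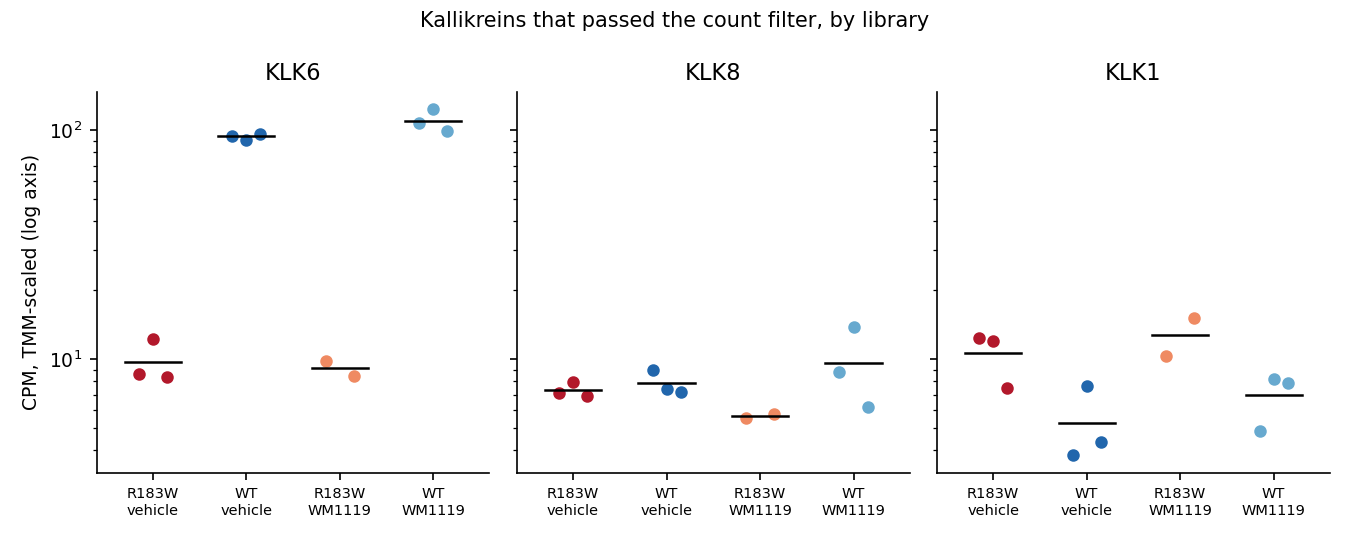
TMM-scaled CPM (log axis) of the 3 testable kallikreins in each library, with points for libraries and bars for group means. KLK6 separates the genotypes by about the same distance under both treatments, KLK8 lies between 5.52 and 13.9 CPM in all 4 groups, and KLK1 tends the other way from KLK6 with overlap under vehicle.

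The log2 difference of KLK6, R183W less WT, was -3.28 (SE 0.17) under vehicle, which is 9.72-fold lower. By the size of this difference KLK6 stood at rank 117 of the 13980 genes. Under WM1119 the difference was -3.58 (SE 0.21), 12.0-fold lower and at rank 173. Leaving out each library in turn gave -3.47 to -3.18 under vehicle and -3.72 to -3.49 under WM1119. In both genotype comparisons 1 of the 2 testable members, KLK6, was called lower and none higher, where called means an edgeR adjusted p under 0.05. Of all genes tested, 6.17% were called lower and 6.82% higher in R183W cells under vehicle, and 3.92% lower and 4.64% higher under WM1119. Because the members were selected from these results, nothing is read from their count against those shares. The groups did not overlap for 37.8% of all genes under vehicle and 34.8% under WM1119.

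KLK6 moved little with the inhibitor in either genotype. In R183W cells the log2 difference, WM1119 less vehicle, was -0.07 (SE 0.22), and the libraries overlapped. In WT cells it was 0.23 (SE 0.15), a fold of 1.17, and all 3 WM1119 libraries lay above all 3 vehicle libraries, a lack of overlap that 22.3% of all genes tested showed in this comparison. The interaction, taken as the WM1119 difference of R183W cells minus the WM1119 difference of WT cells, was -0.30 (SE 0.27). None of these KLK6 values was called. No member was called in any of these 3 comparisons, in which 1.99% of genes were called higher and 2.65% lower with WM1119 in R183W cells, 2.33% and 2.53% in WT cells, and 0.093% and 0.193% for the interaction. The 2 effects of the inhibitor and the 2 genotype differences share libraries in pairs, so their values are given side by side and are not independent.

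**Figure D3:**
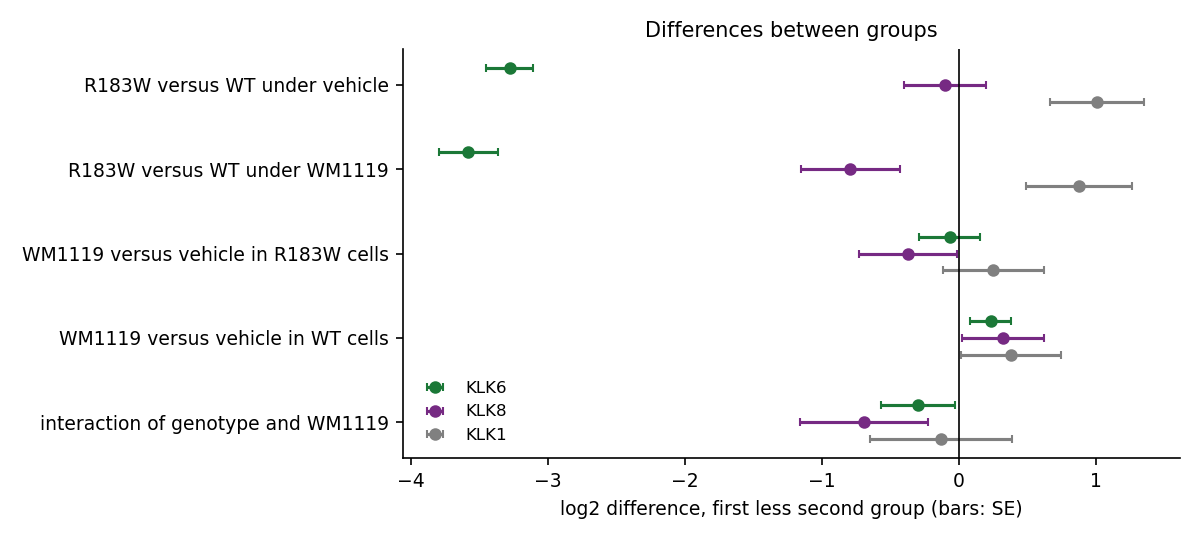
Log2 differences of KLK6, KLK8 and KLK1 in the 5 comparisons, with bars for SE and the first-named group less the second. KLK6 lies at -3.28 and -3.58 in the genotype comparisons and near 0 with the inhibitor, while KLK1 lies on the positive side in both genotype comparisons.

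KLK8, neuropsin, is a trypsin-like enzyme of epidermis and brain. It lay between 5.52 and 13.9 CPM in all libraries. It read 7.09, 7.92 and 6.89 CPM in R183W libraries with vehicle (7.30 ± 0.543, n = 3) and 8.92, 7.43 and 7.15 in WT libraries with vehicle (7.84 ± 0.953, n = 3). With WM1119 it read 5.52 and 5.74 CPM in R183W libraries (5.63 ± 0.155, n = 2) and 8.79, 13.9 and 6.19 in WT libraries (9.62 ± 3.91, n = 3). The vehicle groups overlapped, and the WM1119 groups did not, as for 34.8% of all genes tested. In R183W cells both WM1119 libraries lay below all vehicle libraries, a lack of overlap that 46.8% of all genes tested showed. The log2 difference, R183W less WT, was -0.10 (SE 0.30) under vehicle and -0.79 (SE 0.36) under WM1119. With the inhibitor it was -0.37 (SE 0.36) in R183W and 0.32 (SE 0.30) in WT cells, and the interaction was -0.69 (SE 0.47). None of these was called with all libraries. The value under WM1119 turns on single libraries. Without WT WM1119 library 2, the highest, it was -0.44, and the inhibitor value in WT cells was -0.05. Without WT WM1119 library 3, the shallowest library, the value under WM1119 was called, which made 2 members called there.

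KLK7, the chymotrypsin-like enzyme of the stratum corneum, had counts in 5 libraries and at most 6 in any of them. Its counts summed to 0 in R183W vehicle, 5 in WT vehicle, 4 in R183W WM1119 and 8 in WT WM1119 libraries. KLK10, first described as a gene of normal mammary epithelium, had counts in 6 libraries and at most 5. Its sums were 1, 5, 2 and 6 in the same order. KLK11, a trypsin-like enzyme known from brain and prostate, also had counts in 6 libraries, with at most 4 and sums of 5, 5, 1 and 2. At these counts no difference between groups was detectable for KLK5, KLK7, KLK10 or KLK11, and no fold is given.

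The balance within the family followed KLK6. KLK6 made up 33.9% of the 442 kallikrein counts of R183W vehicle libraries and 86.9% of the 1627 counts of WT vehicle libraries. With WM1119 the shares were 32.2% of 214 counts in R183W and 86.0% of 1411 in WT libraries. Single libraries ran from 28.0% to 37.0% in R183W cells and from 83.8% to 89.4% in WT cells. There were 1.21 to 1.78 counts of KLK6 per count of KLK8 in R183W libraries and 8.91 to 16.1 in WT libraries, so the ranges are far apart. Set per kilobase of annotated exon, mean KLK6 was 4.91, 47.6, 4.63 and 55.8 CPM per kilobase in R183W vehicle, WT vehicle, R183W WM1119 and WT WM1119. KLK8 was 3.92, 4.20, 3.02 and 5.16 on that scale, and KLK1 was 4.47, 2.21, 5.34 and 2.93. On that scale the order in WT cells was KLK6, KLK8 and KLK1. In R183W cells the means of the 3 genes lay between 3.02 and 5.34, with KLK6 highest under vehicle and KLK1 highest under WM1119.

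KLK1 (ENSG00000167748), tissue kallikrein, which releases kinins from kininogen, opens the cluster and is not one of the 6 genes. It read 12.4, 12.0 and 7.50 CPM in R183W and 3.79, 7.62 and 4.33 in WT libraries with vehicle, groups that overlap. With WM1119 it read 10.3 and 15.1 in R183W and 4.83, 8.22 and 7.84 in WT libraries. These groups do not overlap, as for 34.8% of all genes tested. The log2 difference, R183W less WT, was 1.01 (SE 0.34, edgeR adjusted p = 0.0709) under vehicle and 0.88 (SE 0.39, edgeR adjusted p = 0.185) under WM1119. Neither passed. The first passed without WT vehicle library 2 (edgeR adjusted p = 0.0437) or WT WM1119 library 3 (0.0375), and leaving out each library in turn gave 0.0375 to 0.223.

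None of the nearest testable genes around the cluster was called lower in R183W cells, as KLK6 was. Of the 3 protein-coding genes on each side, GPR32, ACP4, SIGLEC9 and SIGLEC7 had 0 counts and SMIM47 had 4. CTU1, a tRNA-modifying enzyme next to KLK14, had 246 counts and differed under vehicle by -0.16 on the log2 scale (SE 0.42, edgeR adjusted p = 0.843). The 20 nearest testable protein-coding genes, 10 on each side, were chosen after the data were seen. Their median difference under vehicle was 0.28 (from -1.90 to 1.94), with 3 called higher and 0 lower. Under WM1119 it was 0.30 (from -1.03 to 3.06), with 2 higher and 0 lower. The medians over the 844 testable genes of chromosome 19 were 0.10 and 0.02, so these medians had the opposite sign to KLK6, at -3.28 and -3.58. Whether the editing of the WT line changed this region was not tested.

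Genes that kallikreins act on were next. Of 13 receptors and substrates on the list, 6 were testable and 3 had no counts in any library. Under vehicle 3 of the 6 were lower in R183W cells and 0 higher (median -0.76, against -0.01 over all genes tested). Under WM1119 2 were lower and 0 higher (median -0.38, against -0.02). Of all genes tested, 6.17% were called lower under vehicle and 3.92% under WM1119. This list and the lists below were chosen with earlier results of these data known, so counts of calls in them are a description. The shares of all genes called in each comparison, given with KLK6 above, stand beside those counts too. FLG (ENSG00000143631), filaggrin, an epidermal barrier protein released from a precursor by proteases, was the most different. It read 1.98, 5.99 and 6.49 CPM in R183W and 132, 148 and 139 in WT libraries with vehicle. With WM1119 it read 1.44 and 2.42 in R183W and 293, 238 and 218 in WT libraries. The genotypes did not overlap, as for KLK6, and as for 37.8% of all genes tested under vehicle and 34.8% under WM1119. The log2 difference, R183W less WT, was -4.89 (SE 0.28, edgeR adjusted p = 1.35e-07) under vehicle and -7.04 (SE 0.40, edgeR adjusted p = 1.81e-07) under WM1119. FLG rose with WM1119 in WT cells by 0.84 (SE 0.22, edgeR adjusted p = 0.0409), higher in 3 of 3 libraries. It kept that call without R183W vehicle library 1 or WT WM1119 library 3, and leaving out each of the other 9 libraries ended it (adjusted p up to 0.131). The interaction of FLG was -2.14 (SE 0.54, edgeR adjusted p = 0.152), which did not pass. It passed without R183W vehicle library 1 (edgeR adjusted p = 0.027), without WT WM1119 library 3 (0.0382), with no filter on low counts (9.93e-05) and in DESeq2 (0.00545).

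**Figure D4:**
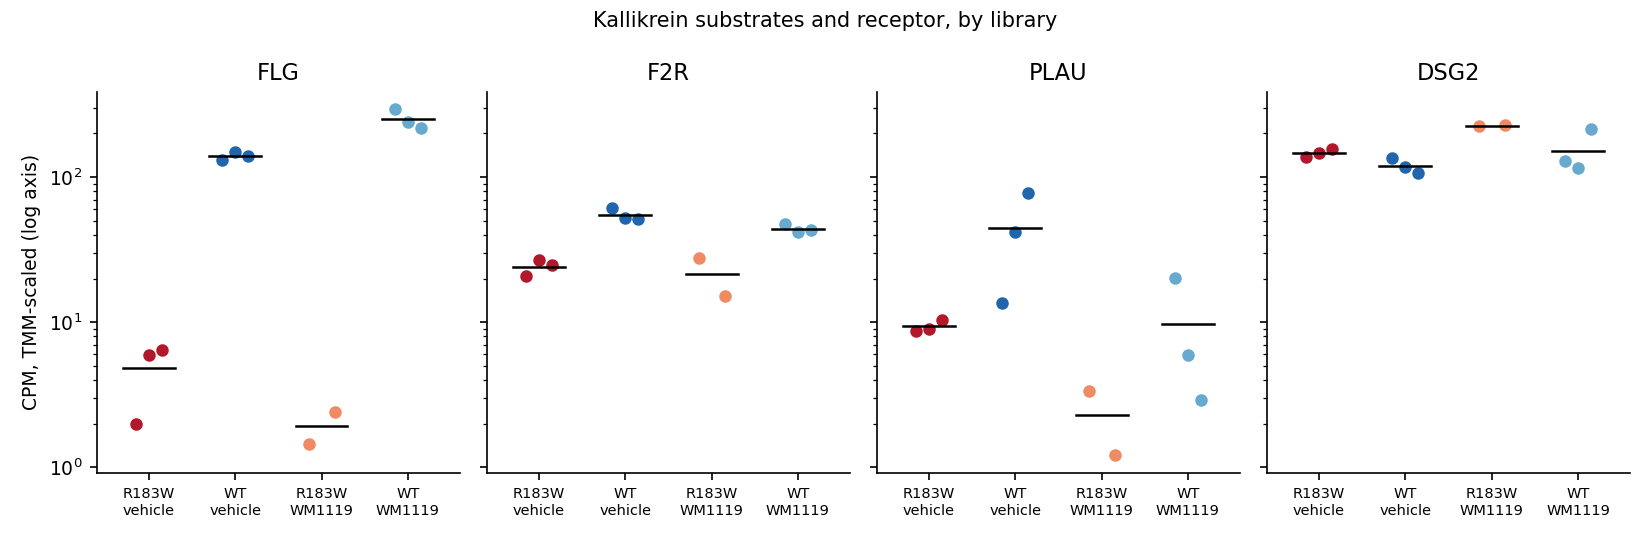
TMM-scaled CPM (log axis) in each library of FLG, F2R and PLAU, the 3 list genes called lower in R183W cells under vehicle, and of DSG2, with bars for group means. FLG and F2R separate the genotypes under both treatments, PLAU varies widely between WT libraries, and DSG2 was called in no comparison.

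F2R, the thrombin receptor, which some kallikreins can also cut, fell in R183W cells by 1.18 on the log2 scale under vehicle (SE 0.20, edgeR adjusted p = 0.0016). It fell by 1.03 under WM1119 (SE 0.24, edgeR adjusted p = 0.0146), a call lost without R183W WM1119 library 2 (0.19). PLAU, urokinase, whose precursor kallikreins can activate, fell by 2.25 under vehicle (SE 0.58, edgeR adjusted p = 0.0211). Its WT vehicle libraries spread from 13.6 to 78.3 CPM, and leaving out any one of the 6 vehicle libraries except WT vehicle library 1 ended the call (adjusted p up to 0.129). DSG2, a desmosomal cadherin, differed under vehicle by 0.29 on the log2 scale (SE 0.19, edgeR adjusted p = 0.344). The receptors F2RL1 and F2RL3 were below 7 CPM in every library and passed in none of the comparisons. CDH1, E-cadherin, which kallikreins can cut, had at most 0.811 CPM in any library and was not testable.

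Inhibitors of kallikreins were sparse. Of 12 on the list, 4 were testable (SERPINA1, SERPINA3, SERPINA5 and SPINT2) and 6 had no counts at all. Under vehicle 1 of the 4 was lower in R183W cells and 0 higher (median -0.71). SPINT2, a Kunitz-type inhibitor of trypsin-like proteases, read 30.7 to 38.3 CPM in R183W and 44.6 to 76.8 in WT libraries, a fall of 0.86 on the log2 scale (SE 0.23, edgeR adjusted p = 0.0229). Leaving out any one of those libraries except WT vehicle library 1 ended the call (adjusted p up to 0.124). With WM1119 in WT cells 1 of the 4 was lower. SERPINA3, antichymotrypsin, read 10.3 to 12.7 CPM with vehicle and 3.08 to 5.14 with WM1119, a fall of 1.40 (SE 0.35, edgeR adjusted p = 0.0362). With each of the 11 libraries left out in turn, 3 fits kept its call, those that dropped WT WM1119 library 3, R183W vehicle library 1 or R183W vehicle library 2, and adjusted p over the 11 fits ran from 0.029 to 0.0897. No inhibitor passed for WM1119 in R183W cells, for genotype under WM1119 or for the interaction.

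Of 14 other trypsin-like serine proteases, 4 were testable and 1 was called in any comparison. PRSS23, a secreted serine protease, read 72.8 to 91.6 CPM with vehicle and 24.8 to 34.3 with WM1119 in R183W cells, a fall of 1.47 (SE 0.32, edgeR adjusted p = 0.02). Leaving out R183W vehicle library 2 or 3 or either R183W WM1119 library ended it (adjusted p up to 0.244). HPN (hepsin) and HTRA1, a secreted protease, passed in no comparison and had log2 differences of -0.13 (SE 0.27) and -0.18 (SE 0.20) between the genotypes under vehicle.

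Regulators of epithelial and hormone-responsive genes were counted next, 7 of 16 being testable. PGR, the progesterone receptor, and GRHL2 and EHF, factors of epithelial cells, had 0 counts in all 11 libraries. Under vehicle 2 of the 7 were lower in R183W cells and 0 higher (median -0.31). ELF3, an epithelial ETS factor, fell by 0.69 (SE 0.15, edgeR adjusted p = 0.0071) from 59.1 to 73.6 CPM in WT to 36.7 to 45.5 CPM in R183W libraries. VDR, the vitamin D receptor, fell by 0.74 (SE 0.22, edgeR adjusted p = 0.0434), a call that leaving out any library but WT WM1119 library 1 or 3 ended (adjusted p up to 0.172). With all libraries in, the VDR call was also lost in DESeq2, with no filter on low counts and with replicate number added to the model. Under WM1119 VDR alone was lower, by 1.35 (SE 0.29, edgeR adjusted p = 0.0106), and this was lost without either R183W WM1119 library (up to 0.106). With WM1119 in R183W cells ELF3 rose by 0.65 (SE 0.16, edgeR adjusted p = 0.0349), and this was lost without R183W vehicle library 2 or 3, WT vehicle library 2, WT WM1119 library 2 or either R183W WM1119 library (up to 0.264).

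Of 19 epidermal differentiation genes, 5 were testable and 9 had no counts. Under vehicle 1 was higher in R183W cells. DMKN, dermokine, a secreted epidermal protein, rose by 0.76 (SE 0.17, edgeR adjusted p = 0.00938), and without R183W vehicle library 1 the adjusted p was 0.052. None passed in the other 4 comparisons. Of 12 surface and secreted markers of gynaecological carcinoma, 9 were testable, and under vehicle 2 were higher and 3 lower in R183W cells. FOLR1, the folate receptor, fell by 1.63 (SE 0.18, edgeR adjusted p = 5.41e-05) and CLDN4, a tight junction protein, by 2.01 (SE 0.26, edgeR adjusted p = 0.00017). MUC1, a membrane mucin, rose by 1.59 (SE 0.30, edgeR adjusted p = 0.00329). CLDN3, another claudin, had a log2 change of 3.54 with WM1119 in both R183W (SE 0.35) and WT cells (SE 0.30), with edgeR adjusted p = 7.16e-05 and 1.8e-05, in contrast to the small values of KLK6.

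Genes whose levels were most like those of KLK6 and KLK8 were picked by Pearson correlation of log2 CPM over the 11 libraries with the mean z-score of both. Among the 5 highest were NDUFB9 (r = 0.916), S100A4 (0.914), COBLL1 (0.906) and CTSC (0.906). CTSC, cathepsin C, is itself a protease that activates serine proteases of granules, and S100A4 is a calcium-binding protein. With KLK6 alone as the profile, a choice made after seeing the data, they were SPOCK1 (0.989), COL14A1 (0.989), LAPTM4B (0.986), HRK (0.984) and TSPAN6 (0.982). SPOCK1, a secreted proteoglycan, read 7.10 to 9.07 CPM in R183W and 83.5 to 97.3 CPM in WT libraries with vehicle, so that its genotypes, too, were far apart. TSPAN6, a tetraspanin, read 2.35 to 2.64 and 37.5 to 48.9 CPM. These correlations describe 11 libraries that share 2 genotypes, so genes clearly lower in R183W cells under both treatments tend to score highly with KLK6.

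The libraries as a whole were examined against their labels. Gene counts do not show the edited codon. PPP2R1A was called higher in R183W cells under vehicle by 0.56 (SE 0.17, edgeR adjusted p = 0.0463), a call that leaving out any library but WT WM1119 library 1 or 3 ended (adjusted p up to 0.178). The PPP2R1A call was also lost with no filter on low counts and with replicate number added to the model. KAT6A and KAT6B were called in no comparison. Epithelial KRT8, KRT18 and EPCAM were expressed in all groups, while KRT19 and CDH1 were near 0 and VIM was at 381 to 703 CPM. Of 6 keratinocyte markers, 3 (KRT1, KRT5 and KRT14) had 0 counts, although filaggrin is an epidermal protein. The 6 epithelial markers summed to 1653 to 1852 CPM in R183W and 950.3 to 1212 CPM in WT libraries under vehicle, and to 1628 to 1629.8 and 1170.5 to 1529.7 CPM with WM1119. The epithelial sum, most of it from KRT18, was thus higher in R183W cells, where KLK6 was lower. The markers did not move as a set. Under vehicle 2 of the 4 testable epithelial markers were called higher in R183W cells and 1 lower. The lower one was EPCAM, at 37.1 to 41.0 CPM in R183W and 56.0 to 63.6 CPM in WT libraries. The 5 mesenchymal markers summed to 967 to 1002 CPM in R183W and 1340 to 1385 CPM in WT libraries under vehicle. With WM1119 they summed to 941 to 967 and 856 to 1013 CPM, which overlap. Under vehicle FN1 read 61.0 to 73.4 CPM in R183W and 468 to 628 CPM in WT libraries, while VIM read 676 to 703 and 535 to 629 CPM. The part of these markers in the KLK6 difference was not tested. Fibroblast markers summed to 825 to 1043 CPM in R183W and 687 to 835 CPM in WT libraries under vehicle. With WM1119 they summed to 653 to 655 and 931 to 1049 CPM. Most of this sum came from COL1A1, while COL3A1 and DCN had 0 counts in every library. Leukocyte markers summed to at most 11.2 CPM, nearly all from CD68. Endothelial markers, of which 3 of 4 were matched by ID, summed to at most 0.856 CPM. WT WM1119 library 3 stood apart, correlating with its group at 0.917 and 0.937 across genes, while other replicate pairs reached 0.957 to 0.975.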

How the data were processed

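RNA was measured in 11 HEC50B libraries. Per the labels' protocols, RNA was column-purified and DNase-treated, and a ScriptSeq Complete Gold kit made the libraries. The molecule field names polyA RNA instead, and the labels do not reconcile both. The authors deposited expected counts per gene, here all whole numbers. STAR, RSEM and hg19 are named in the submitters' processing notes. RSEM shares out reads that match several genes, so paralogs are uncertain.

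A reference list of gene names gave symbols for 51959 of the 57736 IDs. GENCODE release 29 gave exon lengths and overlapping genes, and RefSeq gave gene order and promoter sequences. IDs without a symbol held 1.01% of counts. No gene coordinates are given because builds differ.

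Genes passing filterByExpr (13980) entered a two-sided quasi-likelihood F test in edgeR 4.0.16 (TMM, R 4.3.3) in 1 fit of 4 group means. P-values were adjusted by Benjamini-Hochberg over all genes tested and called under 0.05. The biological coefficient of variation was 19.6%. The fit was also run on simulated data with a common spread for all genes, and the outcome is not reported here. Real libraries were less even, so the simulation does not show how the fit behaves on them.

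Members, lists and named genes were chosen with earlier results of these data known. Named were the members, other kallikreins, 3 coding genes on each side of the cluster, PPP2R1A, KAT6A, KAT6B, up to 4 called genes per list and comparison, and the 5 most correlated genes, passing over clone and pseudogene names. Alternatives were DESeq2 1.42.0 and its size factors, no filter, a replicate block, the compared groups alone, and leaving out each library. Replicates of a group differed by more than sampling noise in every pair (chi-square 2.64 to 23.0 per degree of freedom). Of the most correlated genes, 1 is not reported here.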

Additional observations from a re-analysis of the deposited data

Results flagged for a closer look

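Among the marker genes, the inhibitor effect differed between the genotypes for FN1 and COL1A1 by the interaction test. FN1, fibronectin, had an interaction of 2.01 (log2 scale, WM1119 difference of R183W minus that of WT cells, edgeR adjusted p = 0.0148), with 68.0 ± 6.32 CPM (SD, n = 3) in R183W vehicle and 154 ± 4.28 (n = 2) in R183W WM1119 libraries, and 566 ± 86.3 and 317 ± 81.7 (n = 3 each) in WT cells. That call was lost with the replicate block (0.0714) and without R183W vehicle library 2 or 3 or either R183W WM1119 library (edgeR adjusted p up to 0.103). COL1A1, a collagen chain, had an interaction of -1.02 (edgeR adjusted p = 0.0252), with 835 ± 103 and 566 ± 1.87 CPM in R183W cells and 615 ± 38.8 and 844 ± 22.8 in WT cells. That call was lost with the replicate block (0.146) and when any library but R183W vehicle library 1 or WT WM1119 library 1 or 3 was left out (edgeR adjusted p up to 0.2).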

How the results depend on the processing

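The counts of members called, which are a description because the members were selected from these results, were 0, 0, 1, 1 and 0 (WM1119 in R183W cells, in WT cells, genotype under vehicle, under WM1119, and interaction), in the alternatives run, except that leaving out WT WM1119 library 3 gave 2 for genotype under WM1119 (range 1 to 2 over the libraries left out). Deviations from group means correlated at r from -0.39 to 0.14 for same-numbered libraries and from -0.16 to 0.41 for the other pairs. With 2 or 3 libraries per group these deviations are tied to each other, so they cannot settle whether the numbers pair libraries. A replicate block left the member counts as they were and moved the calls over all genes from 649, 680, 1817, 1197 and 40 to 261, 287, 1189, 678 and 0. Without the low-count filter 1110, 1287 and 191 genes were called for the inhibitor in R183W and WT cells and for the interaction. DESeq2 called 1040 in WT cells and 167 for the interaction, and fits of only the compared groups called 2406, 139, 2929 and 319. Leaving out single libraries gave 118 to 1600, 247 to 1392, 965 to 3151, 386 to 2895 and 0 to 192. KLK1 passed under vehicle with no filter (edgeR adjusted p = 0.0425) and with the vehicle groups alone (0.0426). Of 44 calls of genes outside the members, 29 were lost in at least 1 alternative and 15 in none. The cause of these shifts was not tested. The low counts of KLK5, KLK7, KLK10 and KLK11 limit any statement on them.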

Other observations

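Of the 5 genes most like KLK6 over the libraries, COL14A1 and LAPTM4B lie on chromosome 8, whose 459 testable genes had a median log2 difference, R183W less WT, of -0.24 under vehicle and -0.22 under WM1119. The median over all 13980 genes was -0.01 and -0.02. KLK6 lies on chromosome 19, where the medians were 0.10 and 0.02. LAPTM4B, a lysosomal membrane protein, read, with vehicle, 296 ± 9.53 CPM in R183W libraries and 547 ± 4.35 in WT libraries (SD, n = 3 each). COL14A1, a fibril-associated collagen, read 21.7 ± 0.914 and 72.4 ± 4.25 CPM there. Chromosome number was not measured. These genes and this grouping were chosen after the data were seen.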
